A study of Rattus norvegicus with 6 samples.

Results

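Hmox1 and Hspb1, a pair of stress-response genes, were followed in the rat median eminence 1 day after a surgical injury. They were picked by their Ensembl identifiers, ENSRNOG00000014117 for Hmox1 and ENSRNOG00000023546 for Hspb1, and make up 2 of the 34510 rows of the deposited count table. The choice rests on what the genes are known for and was made with earlier results of these data known. RNA was sequenced from 6 samples of the hypothalamic median eminence of S-D rats: 3 taken 1 day after the operation that the labels name PEL, without spelling it out, and 3 labelled Control. The labels give no age or sex, no transgene or drug, and do not say whether the Control animals had a sham operation or whether each sample came from 1 animal. The p-values are therefore relative to the variation among these samples, part of which may be technical. The tissue label was not checked against marker genes, because the identifiers in the table were not paired with symbols here.

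The median eminence lies at the base of the hypothalamus, where hypothalamic axons release hormones into vessels that lead to the pituitary. Hmox1 encodes haem oxygenase 1, the inducible enzyme that breaks haem down to biliverdin, carbon monoxide and iron. In the brain it is known to be induced in microglia, macrophages and astrocytes after bleeding and oxidative stress, chiefly through the transcription factor Nrf2 and the removal of the haem-sensing repressor Bach1. Hspb1 encodes a small heat shock protein, Hsp27 (Hsp25 in rodents), which holds unfolding proteins in solution without using ATP and binds actin filaments. It is induced through the heat shock factor Hsf1 and is known from reactive astrocytes and from injured neurons.

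Both genes were higher in every PEL library than in any Control library, a separation shown by 16.2% of all genes tested. Hspb1 rose 20.1-fold and Hmox1 rose 3.91-fold, so that the fitted factor was larger for Hspb1. The level after PEL differed widely between the 3 libraries for both genes, and the same library was highest and the same library lowest for both. Levels are given as CPM, the reads of a gene scaled to a fixed library total, adjusted between libraries by the trimmed mean of M values (TMM). They are not divided by transcript length, so the levels of one gene are not compared with those of the other. In bulk tissue, more cells that express a gene and more RNA per cell cannot be told apart.

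Library depth was between 13756297 and 17144108 assigned reads, with 21124 to 21558 rows detected. The libraries separated by group on the first principal component, which held 54.1% of the variance of log2(CPM + 1). On it PEL replicate 1 scored 25.7, PEL replicate 2 scored 44.0 and PEL replicate 3 scored 4.60, against -26.1 to -23.4 in the Control libraries. PEL replicate 3 thus stood nearest to the Control group, and the fold changes and the ratio of the 2 genes are also given without it.

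Hspb1 was counted at 3400, 5037 and 1529 reads in PEL replicates 1, 2 and 3, against 152, 155 and 163 reads in Control replicates 1, 2 and 3. On the TMM scale these were 211, 309 and 89.9 CPM in the PEL libraries, against 11.0, 9.68 and 9.66 CPM in the Control libraries. The groups did not overlap: the lowest PEL value was 8.16 times the highest Control value. Hspb1 averaged 203 ± 110 CPM after PEL and 10.1 ± 0.780 CPM in Control (SD, n = 3 each). The fitted log2 fold change was 4.33 (SE 0.44), with an adjusted p = 0.00284 by edgeR's quasi-likelihood test with Benjamini-Hochberg adjustment over 17133 genes. The fold change one SE below and above the estimate was 14.9 and 27.2.

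The Hspb1 promoter is shown because the 5′ region of this gene is the known site of action of heat shock factors. The window, from 250 bases before to 50 bases after the annotated start, was taken from RefSeq on the GRCr8 assembly, at chr12:26432252-26432551 on the minus strand, and is printed 5′ to 3′ on the strand of the gene. Capitals mark matches to GAANNTTC, one of the paired arrangements of the heat shock element.
Hspb1 promoter: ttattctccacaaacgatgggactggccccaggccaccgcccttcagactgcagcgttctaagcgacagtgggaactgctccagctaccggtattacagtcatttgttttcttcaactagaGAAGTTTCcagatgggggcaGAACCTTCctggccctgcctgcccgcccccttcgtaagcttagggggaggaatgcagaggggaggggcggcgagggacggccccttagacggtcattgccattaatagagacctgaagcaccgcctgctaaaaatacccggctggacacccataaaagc
The matches, GAAGTTTC and GAACCTTC, begin 129 and 109 bases before the start. GAANNTTC reads the same on both strands, and the 2 matches do not overlap each other. At least 1 match was held by 8.59% of the 33469 promoter windows of the same table, and 2 or more by 0.517%. The other motifs searched on both strands had no match in this window: TTCNNGAA, the other paired arrangement, held by 8.77% of all windows, TGACNNNGC, the core of the antioxidant response element that Nrf2 binds, by 12.1%, TGAGTCA, the AP-1 site, by 4.63%, CACGTG by 6.42% and TATAAA by 14.2%. These are matches of letters, not measured binding sites. The promoter table matched 1 of the 2 genes, Hspb1, and Hmox1 was not matched.

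Hmox1 was counted at 1431, 1886 and 708 reads in PEL replicates 1, 2 and 3, against 325, 329 and 319 reads in Control replicates 1, 2 and 3. This gave 88.7, 116 and 41.6 CPM in the PEL libraries, against 23.6, 20.5 and 18.9 CPM in the Control libraries. The groups did not overlap here either, but the gap was narrower, the lowest PEL value being 1.77 times the highest Control value. Hmox1 averaged 82.0 ± 37.5 CPM after PEL and 21.0 ± 2.36 CPM in Control (SD, n = 3 each). The fit gave a log2 fold change of 1.97 (SE 0.33) and an edgeR adjusted p = 0.0182, and the fold change one SE below and above it was 3.11 and 4.91. In the RefSeq annotation of GRCr8 a long non-coding RNA, LOC134483111, overlaps Hmox1, and no annotated gene overlaps Hspb1. No source used here gives the strand setting of the counting, so reads of that RNA and of Hmox1 may not be separable.

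**Figure D1:**
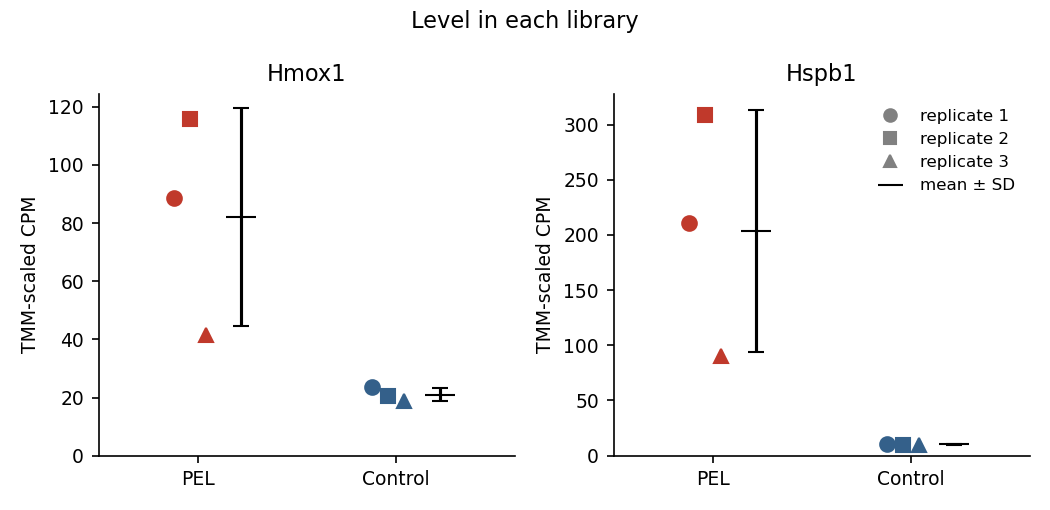
Level of Hmox1 (left) and Hspb1 (right) in each library, in TMM-scaled CPM, with PEL left of Control and a symbol for each replicate number. Horizontal marks with bars are the mean ± SD of 3 libraries. For both genes all PEL libraries lie above all Control libraries, with PEL replicate 2 highest (116 CPM for Hmox1, 309 CPM for Hspb1) and PEL replicate 3 lowest of the PEL group (41.6 and 89.9 CPM).

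Both genes passed the low-count filter, and both were called higher. Among all genes tested, 4.21% were called higher and 1.07% lower at an adjusted p under 0.05, and 16.2% had all 3 PEL values above all 3 Control values, so a call or a separation of this kind was not rare in the table. The size of the change placed the genes further out. Of the 17133 genes tested, 2.28% were called higher with a fitted rise of at least 2-fold, a class that holds both genes, and 0.911% with a rise of at least 4-fold, a class that holds Hspb1. By fitted log2 fold change Hspb1 ranked 7 among all genes tested and Hmox1 ranked 206. Among the 12989 genes that averaged 5 CPM or more over the 6 libraries the ranks were 4 and 90. The median log2 fold change of all genes tested was -0.02.

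**Figure D2:**
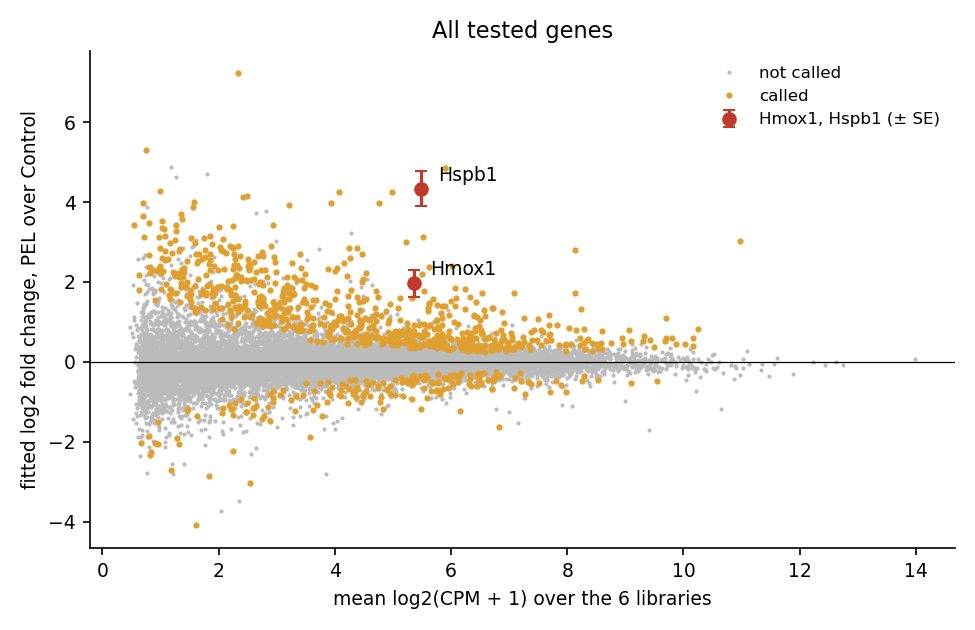
Fitted log2 fold change of PEL over Control (vertical axis) against mean log2(CPM + 1) over the 6 libraries (horizontal axis) for each of the 17133 genes tested, with called genes in orange and Hmox1 and Hspb1 in red with their SE. Hspb1 lies at 4.33, near the upper edge of the cloud, and Hmox1 at 1.97, among the upper called genes.

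The balance between the 2 genes differed between PEL and Control. It is made from the same counts as their fold changes and restates the unequal rises, so it is not a further result. The ratio of Hmox1 to Hspb1 reads within a library is free of any scaling between libraries. Its level depends on the lengths of the 2 transcripts, but its change between groups does not. There were 0.421, 0.374 and 0.463 Hmox1 reads per Hspb1 read in PEL replicates 1, 2 and 3, against 2.14, 2.12 and 1.96 in Control replicates 1, 2 and 3. The counting intervals (95%, exact Clopper-Pearson) lay between 0.355 and 0.507 in the PEL libraries, against 1.62 to 2.61 in the Control libraries. Every PEL library thus held more reads of Hspb1 than of Hmox1, and every Control library the reverse. Reads are not divided by transcript length, so which gene had more transcripts cannot be read from this. On the log2 scale, with 0.5 reads added to each count, the ratio averaged -1.26 ± 0.15 after PEL and 1.05 ± 0.07 in Control (SD, n = 3 each), a difference of -2.31, which is a 4.95-fold lower ratio after PEL. An exact two-sided permutation test of this difference gave p = 0.1, the smallest p that 3 against 3 libraries allow. Without PEL replicate 3, which had the highest PEL ratio, the difference was -2.38, and leaving it out had to widen it. The ratio varied much less between PEL libraries than either gene did alone. Its highest PEL value was 0.463 and its lowest 0.374, whereas the highest PEL level was 3.44 times the lowest for Hspb1 and 2.78 times for Hmox1. The counting intervals of PEL replicate 2 (0.355 to 0.395) and PEL replicate 3 (0.423 to 0.507) did not overlap. The ratio was thus not constant among the PEL libraries. Ratios of other pairs of genes were not examined. Of the 720 other genes called higher, 59.9% had the same order of PEL libraries as these 2 genes.

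**Figure D3:**
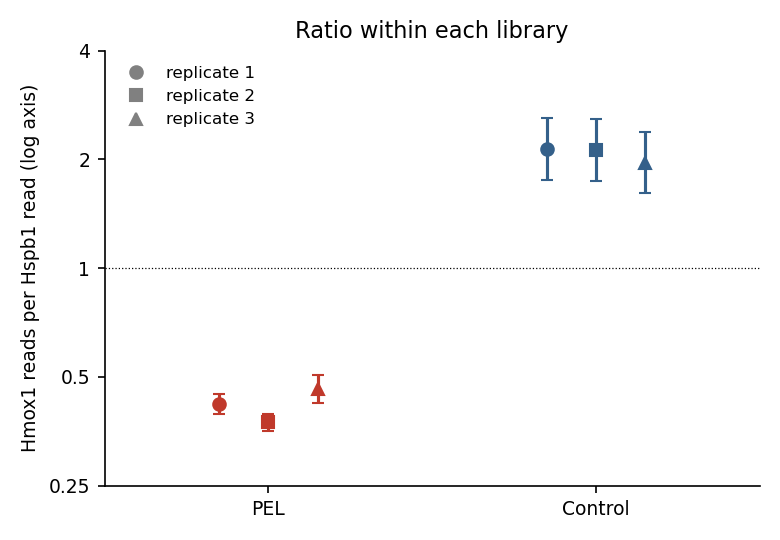
Hmox1 reads per Hspb1 read in each library on a log axis, PEL left of Control, with 95% exact counting intervals as bars. The 3 PEL libraries lie between 0.374 and 0.463, and the 3 Control libraries between 1.96 and 2.14. The dotted line at 1 marks equal reads, not equal numbers of transcripts.

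The PEL libraries followed 1 order for both genes. PEL replicate 2 was 30.5-fold above the Control mean for Hspb1, replicate 1 was 20.8-fold and replicate 3 was 8.88-fold above it. For Hmox1 the folds were 5.51 in replicate 2, 4.22 in replicate 1 and 1.98 in replicate 3. These differences between PEL libraries were larger than counting error, since the 95% exact intervals of the CPM before TMM scaling did not overlap between any pair of PEL libraries for either gene. For Hmox1 they were 82.5 to 91.5 in replicate 1, 112 to 123 in replicate 2 and 38.3 to 44.5 in replicate 3. For Hspb1 they were 200 to 214 in replicate 1, 305 to 323 in replicate 2 and 84.8 to 93.8 in replicate 3. The intervals cover counting error only and treat each read as independent. PCR copies are not independent molecules, so the intervals may be too narrow.

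The other genes called higher showed the same order in part. Of these 720 genes, 59.9% were highest in PEL replicate 2 and lowest in PEL replicate 3. Hmox1 and Hspb1 fell off more steeply in replicate 3 than most of them. The gain over the Control mean in replicate 3, in CPM, was 0.218 of the gain in replicate 2 for Hmox1 and 0.267 for Hspb1, against a median of 0.549 over the 720 genes. Of the 720 genes, 5.83% had a smaller such share than Hmox1, and 9.86% had a smaller one than Hspb1. The coefficient of variation (SD over mean) of the PEL libraries was 45.7% for Hmox1 and 54.0% for Hspb1, against a median of 17.3% over the 720 genes. Strongly rising genes varied more: over the 73 of the 720 with a fitted rise of at least 4-fold and a mean of at least 5 CPM, the median coefficient of variation was 31.6%, and the median share of the replicate 2 gain reached in replicate 3 was 0.494. In Control it was 11.2% for Hmox1 and 7.71% for Hspb1, where counting error alone gives 5.51% to 5.60% for Hmox1 and 7.83% to 8.11% for Hspb1. The spread of Hspb1 between Control libraries was thus no larger than counting error. The 720 genes were chosen by a test that favours genes with a small spread, so these comparisons are descriptions. In replicate 3 the log2 change of Hmox1 was 0.99, close to the median of 0.80 over the 720 genes, and that of Hspb1 was 3.15. In replicate 2 it was 2.46 for Hmox1 and 4.93 for Hspb1, against a median of 1.27. The position of each PEL library on the first principal component moves with both genes, and its part in these differences was not tested.

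**Figure D4:**
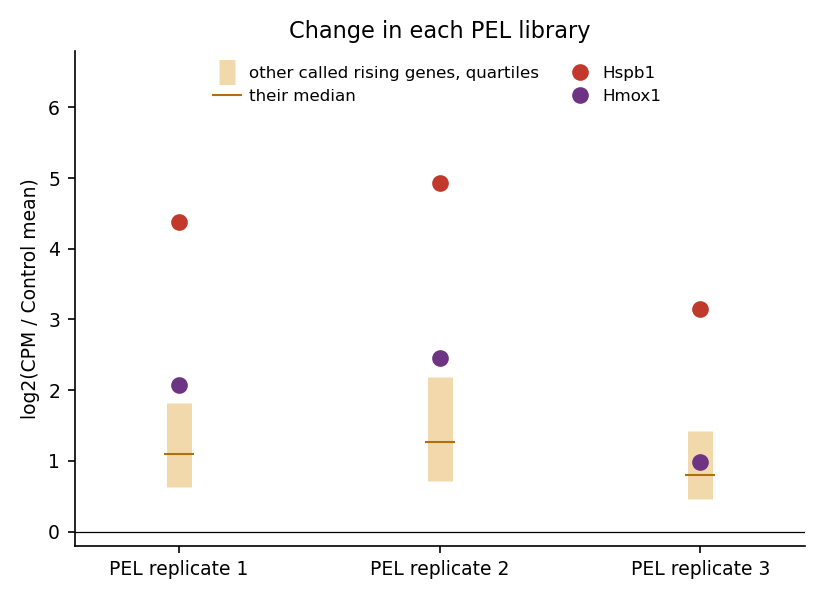
Log2 of the CPM in each PEL library over the Control mean, for Hspb1 (red) and Hmox1 (purple), with the range between the quartiles of the 720 other genes called higher as orange bars and their median as a dash. Hspb1 lies above the bar in all 3 libraries (4.38, 4.93 and 3.15), and Hmox1 lies above it in replicates 1 and 2 (2.08 and 2.46) and inside it in replicate 3 (0.99).

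The call for Hspb1 did not depend on any single library, whereas that for Hmox1 did. Without PEL replicate 3, the library nearest to Control, the log2 fold change was 4.68 for Hspb1 (SE 0.18, edgeR adjusted p = 9.12e-05) and 2.28 for Hmox1 (SE 0.14, edgeR adjusted p = 0.000559). PEL replicate 3 was the lowest PEL library for both genes, so leaving it out had to raise both fold changes. The same fit called 2092 genes over the whole table. Leaving out each of the 6 libraries in turn gave 3.90 to 4.68 for Hspb1, with an edgeR adjusted p no higher than 0.0257. For Hmox1 it gave 1.64 to 2.28, and the edgeR adjusted p was 0.0764 without PEL replicate 1, 0.0792 without Control replicate 1, 0.0879 without Control replicate 2 and 0.0800 without Control replicate 3. In these 4 fits the fold change of Hmox1 stayed between 1.91 and 2.05 on the log2 scale, with an SE of 0.39 to 0.41 in place of 0.33. Calls over all genes fell from 906 with all 6 libraries to 251, 173, 187 and 246 in these fits, in the same order. A lost call was thus not particular to Hmox1. The limma-voom test called 3.67% of genes in either direction and placed Hmox1 just inside the threshold (log2 fold change 1.85, SE 0.40, adjusted p = 0.0490), and Hspb1 further inside it (4.16, SE 0.61, adjusted p = 0.0155).

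**Figure D5:**
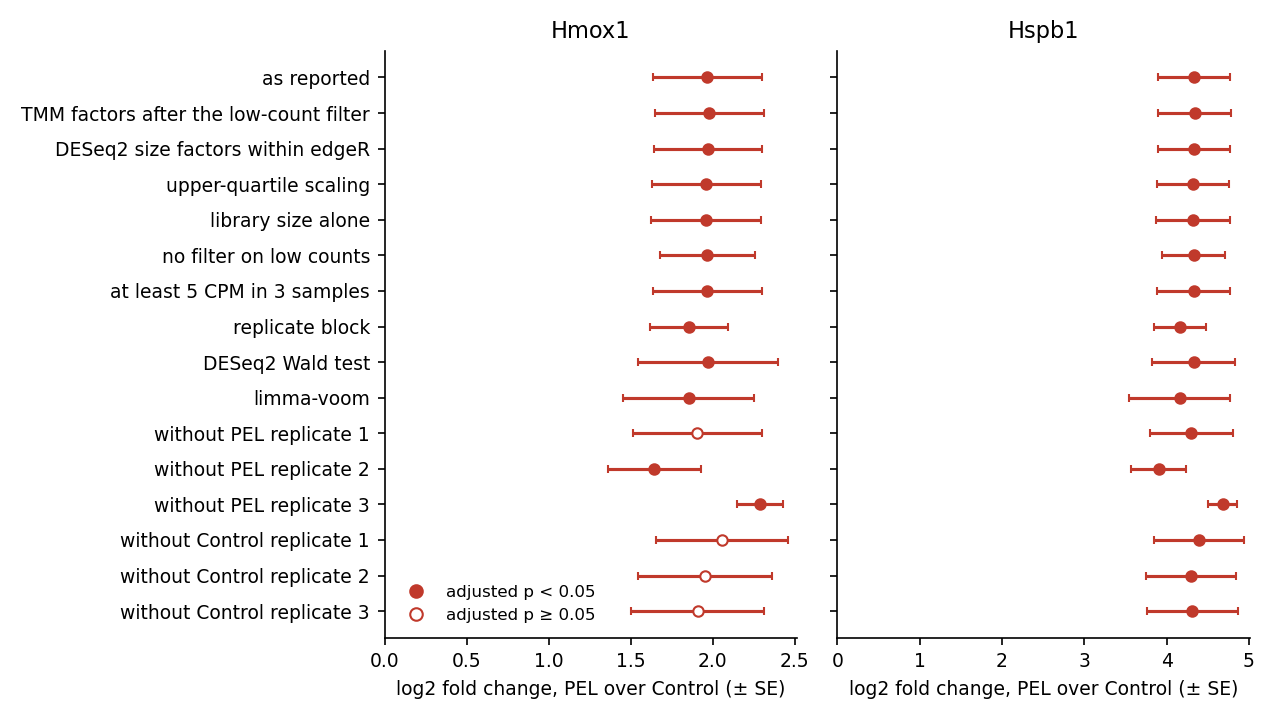
Log2 fold change of PEL over Control with its SE for Hmox1 (left) and Hspb1 (right), as reported and under each of 15 alternatives, with filled points for an adjusted p under 0.05 and open points otherwise. All estimates are above 0, those of Hspb1 between 3.90 and 4.68 and those of Hmox1 between 1.64 and 2.28, and the 4 open points are all for Hmox1 with 1 library left out.

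The genes whose levels over the 6 libraries were most like those of the 2 genes were sought by the Pearson correlation of log2(CPM + 1) among 12547 other Ensembl rows averaging 5 CPM or more. The 6 libraries fall into 2 groups. Such a correlation thus tends to be strong, positive or negative, for genes whose group difference is large beside their spread within groups. It is given as a description. The row most like Hspb1 was ENSRNOG00000010645 (r = 0.9995, n = 6 libraries). It had 104, 158 and 50.6 CPM in PEL replicates 1, 2 and 3, against 7.25, 6.81 and 5.93 CPM in the Control libraries, and a fitted log2 change of 3.97 (SE 0.40, edgeR adjusted p = 0.00290). The row most like Hmox1 was ENSRNOG00000029886 (r = 0.9997, n = 6 libraries). Its values were 178, 219 and 109 CPM in PEL replicates 1, 2 and 3, against 71.1, 65.6 and 61.5 CPM in the Control libraries, with a fitted log2 change of 1.35 (SE 0.22, edgeR adjusted p = 0.0172). Each of these rows ranked all 6 libraries in the same order as the gene it resembled. Hmox1 and Hspb1 also ranked the libraries in the same order as each other. For Hspb1, however, Control replicates 2 and 3 were nearly tied (9.681 and 9.664 CPM), and before TMM scaling their order was reversed (9.722 and 9.733 CPM). The spread of Hspb1 between Control libraries was no larger than counting error. The order of the Control libraries that Hmox1 and ENSRNOG00000010645 shared with Hspb1 therefore cannot be told from counting noise. Between Hmox1 and Hspb1 r was 0.979, which placed Hspb1 at rank 171 among the rows most like Hmox1, and Hmox1 at rank 201 among those most like Hspb1. Correlations above 0.99 were found for 40 rows with Hmox1 and for 70 rows with Hspb1.

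The rows that ran most nearly opposite moved by much smaller factors. ENSRNOG00000007972, the most opposite to Hspb1 (r = -0.997, n = 6 libraries), had 35.0, 34.1 and 37.0 CPM in PEL replicates 1, 2 and 3, against 43.8, 45.0 and 43.9 CPM in the Control libraries. Its fitted log2 change was -0.32 (SE 0.07, edgeR adjusted p = 0.0475). ENSRNOG00000015257, the most opposite to Hmox1 (r = -0.997, n = 6 libraries), had 53.5, 49.8 and 60.7 CPM in the PEL libraries, against 66.6, 67.6 and 70.3 CPM in the Control libraries. Its fitted log2 change of -0.32 (SE 0.09, edgeR adjusted p = 0.0756) did not pass the threshold.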

How the data were processed

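Raw read counts per gene were deposited by the authors as 1 table, with no normalization. The submitters' processing notes name HISAT2 2.0.5, featureCounts 1.5.0-p3 and DESeq2 1.16.1. Genome build, annotation and strand setting were not given in the sources used, so reads of overlapping genes and near-identical copies may not be separable.

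Counts were scaled by TMM over all 34510 rows, filtered with filterByExpr (minimum count 10), which left 17133 genes, and tested with edgeR 4.0.16 (glmQLFit and glmQLFTest, two-sided, group as the only term, all 6 samples) in R 4.3.3. Calls required a Benjamini-Hochberg adjusted p under 0.05 over all genes tested. The SE was obtained as the absolute log2 fold change over the square root of F. Alternatives used DESeq2 1.42.0 and limma 3.58.1. Figures were drawn with matplotlib 3.10.9.

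The 2 genes, the lists and the tests were chosen with earlier results of these data known. The genes named beside the 2 were, for each, the Ensembl row with the highest and the one with the lowest correlation. Lists of Nrf2 targets, haem and iron genes, chaperones and cell type markers had been set down by symbol and were not analysed here, because no identifier could be paired with a symbol. The pairing of the 2 genes with their symbols was given with the choice of genes. Libraries of 1 group differed beyond sampling noise (chi-square per degree of freedom 4.50 to 24.1), so none was a repeat read of another. This cannot tell separate animals from separate preparations of 1 animal. Each library was counted as 1 replicate. No batch is given in the labels.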

Additional observations from a re-analysis of the deposited data

How the results depend on the processing

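Hspb1 kept its direction and an adjusted p under 0.05 in all 15 alternatives, and Hmox1 in 11 of 15. The 4 others left out PEL replicate 1 or 1 of the 3 Control libraries, which leaves 5 samples. Leaving out 1 library gave log2 fold changes of 1.64 to 2.28 for Hmox1, 3.90 to 4.68 for Hspb1 and -2.38 to -2.23 for the ratio of Hmox1 to Hspb1. Both genes lay wholly above the Control values in every PEL library, so leaving out a library could not turn a direction round, and the unchanged directions say nothing about stability. The count of 906 called genes (722 higher, 184 lower), against which the 2 genes were read, ranged from 173 to 2092 (161 to 1409 higher, 12 to 683 lower) when 1 library was left out: 251 without PEL replicate 1, 2092 without PEL replicate 3, and 173, 187 and 246 without Control replicates 1, 2 and 3. The DESeq2 Wald test called 1636 (1199 higher, 437 lower) and limma-voom 629. The cause was not tested. A fit with a replicate block called 544 genes (442 higher, 102 lower), and the log2 fold changes were 1.86 for Hmox1 and 4.17 for Hspb1, both still called. Same-numbered libraries showed no shared deviation (correlations 0.004, -0.083 and -0.052). Rises made up 79.7% of calls as reported, and 67.4% without PEL replicate 3 and 93.1% without Control replicate 1. The ratio could not pass a threshold of 0.05 with 3 libraries a group.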
